A study of Drosophila melanogaster with 6 samples.

Results

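Nuclear receptors of sterol sensing, ecdysone signalling and metabolism were described in RNA from whole male flies fed a control diet or a diet with lithocholic acid (LCA). The genes were Hr96, EcR, usp, Hnf4, ERR, Eip75B, Hr38, Hr39, Hr78 and ftz-f1, and every probe set annotated to 1 of these 10 genes alone was taken, whatever its value. Of the 10 genes, 9 had such a probe set, out of 11982 genes on the array with a name here, and together they had 14 of 18769 probe sets. Eip75B was not analysed here. EcR, usp, Hnf4, ERR, Hr78 and Hr96 had 1 probe set each, Hr38 and ftz-f1 had several, and Hr39 had 4. Probe sets of a gene are numbered below by their mean signal, the brightest first.

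The study measured 6 samples on Affymetrix arrays. Each sample pooled 10 males, 30 days old and labelled as wild type, of W1118, a laboratory stock with white eyes. The 3 LCA pools came from flies kept on food with 50 µmol/l LCA and the 3 control pools from flies kept on control food. Pools share strain, sex, age and tissue, and no label tells whether separate cultures gave the pools of a diet. The p-values thus reflect pool-to-pool spread, which may be technical. In RNA of whole flies, fewer cells of a type and less RNA per cell cannot be told apart.

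Nuclear receptors are transcription factors that bind DNA through zinc fingers and are, in many cases, switched by a small lipid in a pocket of the same protein. EcR and its partner usp, the fly counterpart of vertebrate RXR, together bind the steroid hormone 20-hydroxyecdysone. Hr96 is the fly relative of the vertebrate vitamin D receptor and pregnane X receptor, both of which LCA activates in vertebrates. In flies Hr96 binds cholesterol and is known for its part in sterol balance, fat uptake and resistance to toxic compounds. Hnf4 is known to promote the burning of fatty acids and the making of very long chain lipids, and ERR to promote glycolysis.

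The arrays agreed closely with each other, with Pearson correlations across probe sets of 0.982 to 0.997. On the first principal component (54.1% of the variance) control replicate 1 lay at −42.7, away from the other arrays at −15.4 to 21.4. Male reproductive markers were bright, with a mean log2 signal over 17 testis genes of 8.17 to 9.15 and over 9 accessory gland genes of 10.67 to 11.02. Genes of 12 ovary markers averaged 4.13 to 4.37.

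Most of these receptors were not near background on the arrays. The deposited values carry no detection call, so background was read from probe sets that should have no target in adult males. The first set was 17 artificial tag probe sets of the array, with log2 signals of 2.59 to 3.68. The second was 17 eggshell genes of the ovary and glue genes of larval salivary glands, with signals of 2.90 to 6.43 and a median of 3.50. The top of that range came from the eggshell genes Cp15 and Cp18, at 5.65 or more, and the other 15 genes read at most 4.92. On all 6 arrays, 9 of the 14 receptor probe sets lay above every value of that second set, as did 45.5% of all probe sets. The brightest probe sets of 7 of the 9 genes were among those 9 probe sets (Hr96, usp, Hnf4, Hr38, Hr39, Hr78 and ftz-f1). ERR reached into the range of the second set in LCA replicate 3 alone, at 6.41. Above every artificial tag value on all arrays lay 13 of the 14, EcR included, and 6 of the 17 eggshell and glue genes.

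Against the median of each array (6.31 to 6.39), 10 of the 14 probe sets were higher on all 6 arrays. Hnf4 lay between the 82.5th and 87.6th percentile of an array, Hr78 between the 82.2nd and 84.7th and the brightest ftz-f1 probe set between the 82.4th and 87.3rd. Only 3 probe sets were below the median on all arrays. They were those of EcR (36.2nd to 40.1st percentile), the dimmer one of Hr38 (32.0 to 34.6) and the dimmest of Hr39 (13.6 to 25.5). The last overlapped the artificial tags, with values of 3.21 to 3.65, and has no readable level. Of 15 probe sets of the other 11 nuclear receptors of the fly, 3 were above the array median throughout. A signal depends on a probe set's own affinity, so the receptors are not ranked against each other by it.

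**Figure D1:**
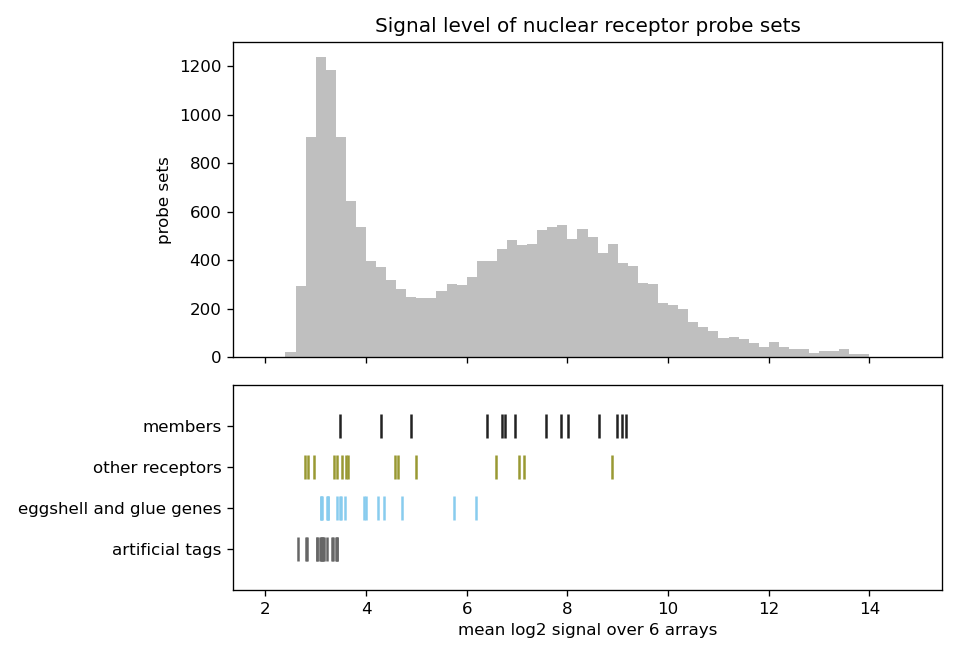
The upper panel counts all probe sets by mean log2 signal over 6 arrays, and the lower panel marks the 14 receptor probe sets, 15 of the other nuclear receptors, 17 eggshell and glue genes and 17 artificial tags on the same axis. Most receptor marks lie to the right of the tags and of the eggshell and glue genes, with EcR and the dimmer probe sets of Hr38 and Hr39 among the latter.

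Comparing the diets asks whether the receptors' own transcripts differed in flies fed LCA. None of the 14 probe sets passed limma's threshold, an adjusted p under 0.05 over all 18769 probe sets, and neither did any other probe set on the array (0%). At an unadjusted p under 0.05, a description and not a call, limma counted 3 receptor probe sets, those of Hnf4, EcR and ERR, all lower in LCA flies. On the whole array 16.1% of probe sets were counted that way, 8.59% lower and 7.53% higher. A count of 3 in 14 is close to that background and is not read as a result about the receptors. The diets did not overlap in 3 of the 14, Hnf4 and EcR with LCA below and the brightest Hr39 probe set with LCA above, against 22.5% of all probe sets (13.2% with LCA below, 9.38% above). The median log2 difference over the 14 was −0.02, against −0.01 over all probe sets.

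Hnf4, the receptor of fatty acid metabolism, was lower in every LCA pool than in every control pool. Its log2 signal was 9.40, 9.32 and 9.32 in control replicates 1 to 3 and 9.07, 8.96 and 8.92 in LCA replicates 1 to 3. Pools of a diet lay close together, with a spread within diets (SD 0.06) lower than that of all but 8.8% of probe sets. The difference was −0.37 ± 0.08 (SE, 3 arrays per diet), a 1.29-fold lower level, with a 95% interval from −0.56 to −0.18 (limma, unadjusted p = 0.0027, adjusted p = 0.151). It ran from −0.41 to −0.34 when each array was left out in turn.

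EcR, the ecdysone receptor, was also lower without overlap. Control replicates read 5.13, 4.98 and 5.09 and LCA replicates 4.88, 4.68 and 4.60. The gap between the lowest control and the highest LCA pool was narrow, and all 6 values lay within the range of the eggshell and glue genes. The difference was −0.34 ± 0.10 (SE), with a 95% interval from −0.58 to −0.10 (limma, unadjusted p = 0.0117, adjusted p = 0.221). Its partner usp read 8.35, 8.02 and 7.88 in control and 7.88, 8.01 and 7.91 in LCA pools. The diets overlapped, as control replicates 1 and 2 lay above every LCA pool and control replicate 3 did not. The difference of usp was −0.15 ± 0.13 (SE, adjusted p = 0.594 by limma), with a 95% interval from −0.46 to 0.16, so a fall as large as that measured for EcR is within it.

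ERR, the estrogen-related receptor, read 7.17, 7.0 and 7.32 in control and 7.02, 6.82 and 6.41 in LCA pools. LCA replicate 1 lay just above control replicate 2, so the diets overlapped narrowly, and LCA replicate 3 lay far below the rest. The difference was −0.41 ± 0.17 (SE, limma unadjusted p = 0.0435, adjusted p = 0.302), and it was −0.24 without LCA replicate 3 (unadjusted p = 0.114). After quantile normalization and after median centring the diets did not overlap, with LCA below.

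Hr96 showed no detectable difference, in data that could have hidden a moderate one. Control pools read 8.96, 8.66 and 8.21 and LCA pools 8.86, 8.48 and 8.60, all LCA values falling inside the control range. Its spread within diets (SD 0.30) was wider than that of 87.8% of probe sets, and the control pools alone spanned the whole range. The difference was 0.03 ± 0.20 (SE, adjusted p = 0.952 by limma), with a 95% interval from −0.43 to 0.50. Quantile normalization or median centring gave −0.01.

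Hr78, an orphan receptor related to the vertebrate testicular receptors, read 9.08, 9.01 and 8.88 in control and 9.05, 8.91 and 8.98 in LCA pools. The groups lay on top of each other, with a difference of −0.01 ± 0.09 (SE) and a 95% interval from −0.22 to 0.20, among the narrowest of the receptors. Hr38, the fly member of the NR4A family, known in flies for its response to neuronal activity and its part in glycogen storage, read 6.99, 6.61 and 6.49 in control and 6.66, 6.72 and 6.72 in LCA pools with its brightest probe set. LCA pools again fell inside the control range (difference 0.01 ± 0.14, SE). Its other probe set, in the range of the eggshell and glue genes, differed by −0.04 ± 0.10.

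The NR5 receptors ftz-f1 and Hr39, relatives of vertebrate SF-1 and LRH-1, share a DNA site and were measured by several probe sets. For ftz-f1, a competence factor of ecdysone responses, the brightest read 9.36, 8.90 and 8.90 in control and 9.12, 9.03 and 9.21 in LCA pools. Control replicate 1 was the highest pool, and the remaining control pools were the lowest. The difference was 0.06 ± 0.14 (SE), and its dimmer probe set differed by −0.11 ± 0.11, so both diets overlapped in both.

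The probe sets of Hr39 did not run together. The brightest read 7.84, 7.79 and 7.74 in control and 7.97, 7.88 and 7.97 in LCA pools, without overlap and with a difference of 0.15 ± 0.08 (SE, adjusted p = 0.366 by limma). That separation was absent after quantile normalization and after median centring. The next read 7.99, 7.61 and 7.47 in control and 7.38, 7.51 and 7.49 in LCA pools, a difference of −0.23 ± 0.14 (adjusted p = 0.433 by limma) that was −0.08 without control replicate 1. Within each array, the first minus the second was −0.15, 0.18 and 0.26 in control and 0.59, 0.37 and 0.48 in LCA pools. The groups did not overlap in this quantity, which was chosen after its values were seen (two-sided exact permutation test, p = 0.1, which is the lowest possible with 3 arrays per diet). The third probe set straddled the array medians, at 6.43, 6.48 and 6.29 in control and 6.21, 6.39 and 6.59 in LCA pools, with a difference of −0.01 ± 0.12 (SE), and the dimmest differed by 0.03 ± 0.14. The files do not say which transcripts of Hr39 each probe set reads.

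**Figure D2:**
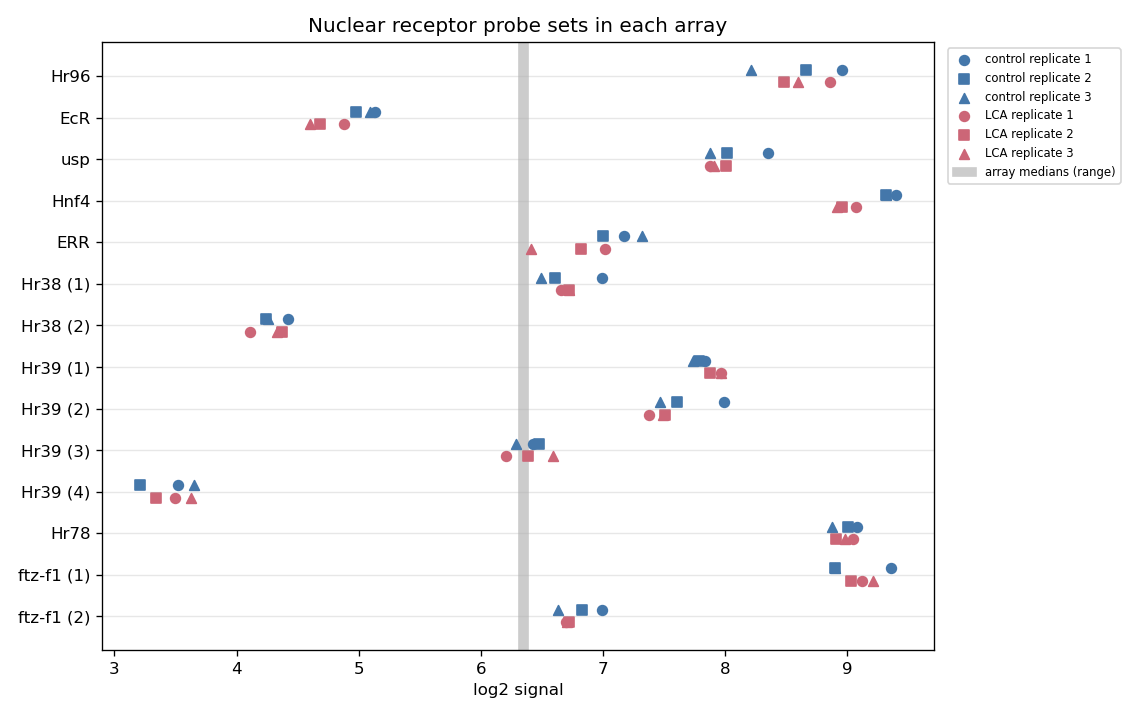
Log2 signal of the 14 receptor probe sets in each array, with controls in blue above and LCA pools in red below each line, replicates 1 to 3 as circles, squares and triangles, and the range of array medians in grey. Hnf4 and EcR show LCA pools to the left of all control pools, while the blue circle of control replicate 1 is the rightmost mark on 10 lines.

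Control replicate 1 held the highest of the 6 values in 10 of the 14 probe sets, among them usp, Hr96, ftz-f1, Hnf4 and EcR. On the whole array it was the highest in 33.1% of probe sets. Without it the number of receptor probe sets lower in LCA was 6, against 9 of 14 with all arrays (52.1% of all probe sets were lower). Hnf4 differed by −0.34 and EcR by −0.31 without that array, and usp by −0.02. Hr96 then differed by 0.21, the brightest probe set of ftz-f1 by 0.22 and that of Hr38 by 0.15.

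For the 11 receptor probe sets that did not reach an unadjusted p of 0.05, the 95% intervals reached down to −0.56, a 1.476-fold lower level, and up to 0.50, a 1.415-fold higher one. A missed threshold therefore does not show equal levels.

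Among the other 11 nuclear receptors of the fly, 1 of 15 probe sets was lower and 1 higher at an unadjusted p under 0.05, against the 16.1% of the whole array. The lower was svp, an orphan receptor related to vertebrate COUP-TF. Its brightest probe set read 9.34, 9.02 and 9.32 in control and 8.83, 8.52 and 8.24 in LCA pools, so the diets did not overlap. The difference was −0.70 ± 0.17 (SE, limma unadjusted p = 0.0042, adjusted p = 0.168), larger in size than that of any of the 9 receptors above. The other svp probe sets, whose signals were under 5, differed by −0.18 and 0.07. The higher was Hr51, a receptor of mushroom body neurons, at 0.38 ± 0.15 (adjusted p = 0.288 by limma). It read 4.49 to 5.01 in control and 5.13 to 5.26 in LCA pools, and the difference was 0.21 without control replicate 1. The knirps-related pair kni and knrl differed by −0.37 ± 0.16 and −0.27 ± 0.15, and eg, a dim receptor gene, by 0.39 ± 0.17. Without LCA replicate 3 kni differed by −0.20 and knrl by −0.14.

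**Figure D3:**
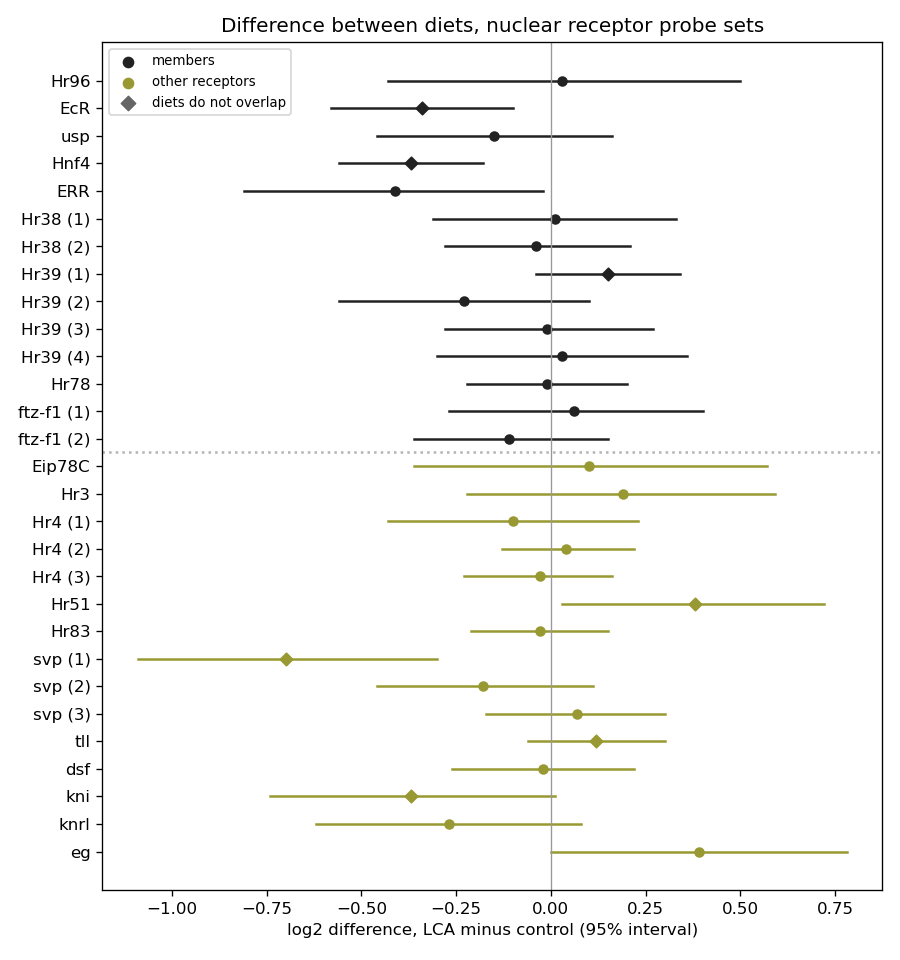
Log2 difference between diets (LCA minus control) with its 95% interval from limma for each nuclear receptor probe set, the 14 of the listed receptors above the dotted line and 15 of the other receptors below. Diamonds mark probe sets whose diets do not overlap, and the intervals of Hnf4, EcR and ERR lie wholly left of 0, as does that of the brightest svp probe set.

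Genes around the receptors were described by their brightest probe set in 8 lists, which share a few genes. ACC is in those of very long chain lipids and of sterol and fat uptake. Lip3 is in those of fatty acid oxidation and of sterol and fat uptake. Npc1a is in those of ecdysone synthesis and of sterol and fat uptake. Eip78C, Hr3 and Hr4, in the ecdysone response list, are also among the other receptors above. Over all 11982 genes, 20.1% had an unadjusted p under 0.05 by limma (10.5% lower, 9.63% higher), 50.3% were lower in LCA, and the median difference was 0.00. No gene in any list passed the adjusted threshold, as none did on the array. Counts and medians below describe each list, and no test of a list was made. The lists were chosen with earlier results of these data known, so a list's share beside that of all genes is not an independent comparison.

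The enzymes of fatty acid oxidation, which Hnf4 is known to promote, were mostly lower. Of 11 measured genes, 10 were lower in LCA flies and 7 were so at an unadjusted p under 0.05, with a median log2 difference of −0.38. These counts include the glucose sensor Hex-C (−0.80 ± 0.25), 1 of the 7 and without overlap. They also include the lipase gene Lip3 (0.36 ± 0.27), the only gene of the list that was higher. Acadvl, an acyl-CoA dehydrogenase, read 10.76, 10.80 and 10.60 in control and 10.30, 10.16 and 10.07 in LCA pools. CPT2 and whd, the carnitine acyltransferases that bring fatty acids into mitochondria, differed by −0.49 ± 0.10 and −0.32 ± 0.08, and yip2, a thiolase, by −0.43 ± 0.12. In 8 of the 11 genes of the list every LCA pool was below every control pool, as in 1792 of all 11982 genes. In either direction, 26.1% of all genes had diets without overlap. The median of the list was −0.24 without LCA replicate 3. The second probe set of whd, with a signal under 5, differed by −0.11.

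Very long chain lipid and hydrocarbon genes of oenocytes, cells under the cuticle where Hnf4 is known to act, had the widest differences. All 8 measured genes were lower and 7 were so at an unadjusted p under 0.05, with a median of −1.07. FASN2, a fatty acid synthase of oenocytes, read 9.57, 9.56 and 10.10 in control and 8.78, 7.79 and 7.60 in LCA pools. FarO, a fatty acyl reductase, read 6.05, 5.76 and 6.93 in control and 5.41, 4.67 and 3.87 in LCA pools. LCA replicate 1 was the nearest of the LCA pools to the controls in both, and LCA replicate 3 the farthest. Hacd1, a dehydratase of chain elongation, and spidey, a ketoacyl reductase, differed by −0.55 ± 0.13 and −0.51 ± 0.11.

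Glycogen genes, of a pathway tied to Hr38, were lower in 5 of 6 genes and 4 of 6 were so at an unadjusted p under 0.05, with a median of −0.46. They were AGBE, the branching enzyme (−0.76 ± 0.14), Pgm1, a phosphoglucomutase (−0.58 ± 0.16), Glys, glycogen synthase (−0.49 ± 0.14), and Glyp, glycogen phosphorylase (−0.43 ± 0.12). Hr38 itself did not differ detectably. Of 10 measured genes of glycolysis and the pentose phosphate route, the pathway of ERR, 8 were lower with a median of −0.16. Only Taldo, a transaldolase (−0.46 ± 0.18), and Gapdh1, a glyceraldehyde phosphate dehydrogenase (−0.28 ± 0.11), were at an unadjusted p under 0.05, 2 of 10 genes, a share like the 20.1% of all genes. Without LCA replicate 3 they differed by −0.27 (unadjusted p = 0.0736) and −0.17 (unadjusted p = 0.0816), and the list's median was −0.09. With the replicate number as a block their unadjusted p-values by limma were 0.0649 and 0.0529. Pgi, which isomerizes glucose phosphate, differed by −0.27 ± 0.14 and Pfk, the phosphofructokinase, by 0.19 ± 0.10.

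Genes that make, import and break down ecdysone were lower in 14 of 16, with a median of −0.13, and 5 of 16 were so at an unadjusted p under 0.05. Oatp74D, the importer that carries ecdysone into cells, read 7.88, 7.77 and 7.82 in control and 7.45, 7.25 and 7.20 in LCA pools. Every LCA pool was lower than every control pool by a clear gap, and the difference was −0.52 ± 0.09 (SE, limma unadjusted p = 0.000931, adjusted p = 0.13). Cyp18a1, which inactivates the hormone, differed by −0.63 ± 0.16, and its other probe set by −0.14 ± 0.11. The synthesis enzymes dib and sad differed by −0.32 ± 0.09 and −0.34 ± 0.10. Both had signals under 5, within the range of the eggshell and glue genes. Cyp6t3, another of the 5 and named here for its low signal, differed by −0.46 ± 0.15, with signals of 4.15 to 5.0 in that range. The genes nvd, spok, spo, sro, phtm, shd, Eo, Ptth and tor, none of them among the 5, also lay in or below that range. Eggshell and glue genes were themselves lower in 11 of 17, with a median of −0.07.

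Genes that respond to ecdysone, with the receptor gene DopEcR counted among them, split evenly, 8 lower and 7 higher of 15. Their median was −0.06, with a single gene at an unadjusted p under 0.05. That was DopEcR, a membrane receptor for dopamine and ecdysteroids, at 0.43 ± 0.13, with all LCA pools (7.92 to 8.17) above all control pools (7.43 to 7.83). Blimp-1, an ecdysone-induced repressor, differed by 0.16 ± 0.12 and ImpE3, a gene of imaginal discs, by 0.20 ± 0.14. ImpE1, of the same group, differed by 0.31 ± 0.14 with signals up to 3.64, in the range of the artificial tags. Of 11 measured coregulators of the receptors, 6 were higher and 5 lower, none was at an unadjusted p under 0.05 by limma with its brightest probe set and none passed the adjusted threshold, and differences ran from −0.10 to 0.18. The acetyltransferase nej (0.18 ± 0.13), the bridging factor mbf1 (0.10 ± 0.08), the demethylase Utx (−0.10 ± 0.10) and Samuel, also called moses, a partner of Hr78 (0.07 ± 0.08), had the smallest p-values of that list. A dimmer probe set of nej differed by 0.45 ± 0.13 (limma unadjusted p = 0.0104, adjusted p = 0.212), with LCA above control and no overlap. The mean of both nej probe sets differed by 0.32 (unadjusted p = 0.0344, adjusted p = 0.26).

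Sterol and fat uptake genes around Hr96 were lower in 8 of 12 with a median of −0.21, and 3 of 12 were so at an unadjusted p under 0.05. Npc2g and Npc2h, secreted sterol-binding proteins, differed by −0.63 ± 0.13 and −0.58 ± 0.13. ACC, the acetyl-CoA carboxylase of fat synthesis, differed by −0.55 ± 0.17 and Npc2b by −0.34 ± 0.16. The lipase gene mag, known as a target of Hr96, differed by 0.04 ± 0.29 and the sterol transporter Npc1a by −0.05 ± 0.08, both named here for their role. Npc2e, named after its values were seen, read 12.07, 11.03 and 7.59 in control and 12.10, 11.17 and 12.01 in LCA pools, so control replicate 3 alone was low. Without control replicate 1 the median of this list was −0.04.

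**Figure D4:**
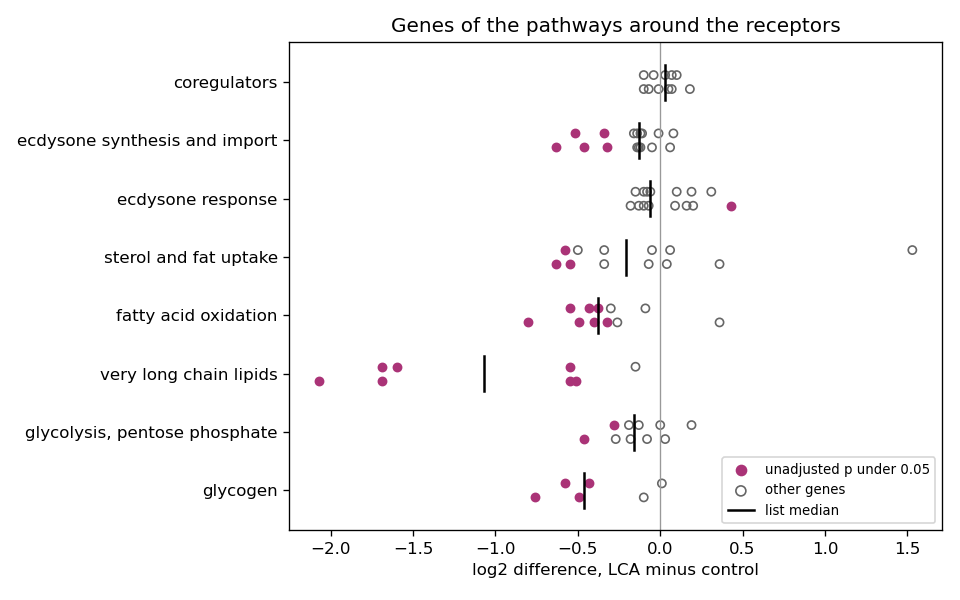
Log2 difference between diets (LCA minus control) of each measured gene in 8 lists around the receptors, filled where limma's unadjusted p was under 0.05, with a bar at each list's median. Very long chain lipid genes reach down to −2.07, while coregulators stay between −0.10 and 0.18.

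Tissue markers moved with the lower receptors and lists. All 8 oenocyte markers were lower in LCA flies (median −1.0), 4 of which are also in the very long chain lipid list. Those 4 differed by −2.07 to −1.60 and the other 4 (Desat1, Fad2, eloF and bond) by −0.40 to −0.06, with Fad2 and eloF in the range of the artificial tags. The mean log2 level over all 8 was 8.45 to 8.84 in control and 7.17 to 8.13 in LCA pools. Of 14 fat body markers 10 were lower (median −0.22), with a mean level of 9.77 to 9.83 in control and 9.41 to 9.59 in LCA pools. These fat body markers did not run together. AkhR, Lsd-1, mdy, Desat1 (also an oenocyte marker) and bmm, the 5 at an unadjusted p under 0.05 by limma, differed by −1.02 to −0.38. Lsp2, FASN1, Fbp1, CG8093 and apolpp differed by −0.27 to −0.15, and Lpin, fit, Obp44a and Yp3 by 0.02 to 0.20. All 8 Malpighian tubule markers were lower (median −0.32) at mean levels of 8.43 to 8.58 in control and 7.93 to 8.41 in LCA pools, and of 12 haemocyte markers 11 were lower (median −0.32), at 7.30 to 7.59 and 7.17 to 7.27. Gut markers had a median of 0.00 and overlapped.

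Markers of testis, neurons and photoreceptors were higher. So were 8 of 9 accessory gland markers (median 0.26), with Sfp24Bb at −1.01 ± 0.11 the other way. Of 8 muscle markers 6 were lower (median −0.05), and of 12 ovary markers 8 were lower (median −0.06). All 17 testis markers were higher (median 0.52, mean level 8.17 to 9.02 in control and 8.99 to 9.15 in LCA pools), as were all 9 neuron markers (median 0.32; 7.92 to 8.21 and 8.24 to 8.40) and all 7 photoreceptor markers (median 0.46; 10.67 to 10.82 and 11.13 to 11.19). Relative to each gene's mean, the testis median was −0.73, −0.22 and 0.14 in control and 0.17, 0.29 and 0.32 in LCA replicates 1 to 3. Control replicate 1 was thus the farthest from the LCA pools, and control replicate 3 lay near them. No list had a member at 0, since log2 values here start at 2.32. RNA integrity was read from the 3′ minus 5′ signal of 5 pairs of control probe sets. It read 3.43, 2.97 and 3.31 in control and 3.45, 3.45 and 3.61 in LCA replicates 1 to 3. Every LCA array was thus above every control array, narrowly for control replicate 1. The averages were 3.24 ± 0.24 in control and 3.50 ± 0.09 in LCA arrays (SD, n = 3 each). The two-sided exact permutation p was 0.1, the lowest possible with 3 arrays per diet. The part of these markers and of RNA integrity in the values of Hnf4, EcR, ERR and the lists was not tested.

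By array, Hnf4 lay 0.23, 0.15 and 0.15 above its own mean in control replicates and at −0.10, −0.21 and −0.25 in LCA replicates 1 to 3. The oenocyte markers' median lay at 0.46, 0.24 and 0.65 and at −0.03, −0.46 and −0.77 in the same arrays. EcR, ERR, svp, fatty acid oxidation and very long chain lipids all had LCA replicate 1 nearest to the controls and LCA replicate 3 farthest from them. The glycogen and Malpighian tubule medians had LCA replicate 2 nearest instead, at −0.02 and 0.03. LCA replicate 3 was again the farthest there, at −0.48 and −0.43.

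**Figure D5:**
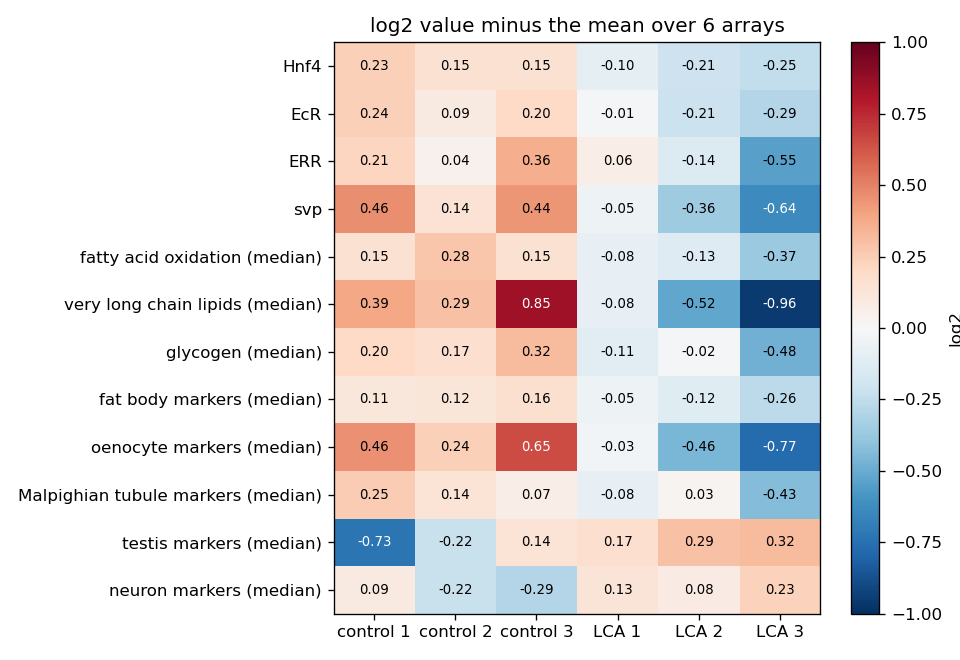
Log2 value minus the mean over 6 arrays for Hnf4, EcR, ERR and svp, and the median of that quantity over genes for pathway and marker lists, with 1 column per array. LCA replicate 3 holds the lowest value in the receptor rows and the pathway rows, and in the fat body, oenocyte and Malpighian tubule rows.

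The genes whose log2 values ran most like a receptor's over the 6 arrays were described by Pearson's r, which has little power to single out genes with 6 points that share their diets. For Hnf4 they were Pp1alpha-96A, Lamtor1 and CG5326 (r = 0.999, 0.999 and 0.998), with 718 of 11982 genes at an r over 0.9. For EcR they were Exn, if and AkhR (r = 0.998, 0.998 and 0.996), with 548 genes over 0.9. For ERR they were Agpat3, Marf and Obp83g (r = 0.994, 0.993 and 0.987), and for Hr96 CG4751, CngB and Ser6 (r = 0.990, 0.988 and 0.986), with 332 and 271 genes over 0.9. Another nuclear receptor gene appeared once, as Hr83 was the gene most like usp (r = 0.989), with signals of 3.48 to 3.60, in the range of the artificial tags.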

How the data were processed

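The authors deposited 1 table of log2 signals per probe set, 18952 rows by 6 arrays. Per the labels' protocols, biotinylated cRNA was made from 1.5 µg of total RNA. How probes were summarized and normalized was not given in the sources used here. Values run from 2.32 to 14.64. After 183 array controls were left out, 18769 probe sets were tested. GEO's platform annotation gave 13647 of them 1 gene, 402 several and 4720 none here. Symbols were updated through a RefSeq gene table (13544 found, 103 kept as given), used for names alone, and no coordinates or sequences are given. A gene in a list is its brightest probe set.

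The difference LCA minus control came from limma (version 3.58.1, R 4.3.3), by lmFit then eBayes, without covariates. Adjusted p-values are by Benjamini and Hochberg's method and cover the whole table. The fit was also run on simulated data with independent noise for each probe set. Such data lack the differences between arrays that many probe sets share here, so that run does not bear on these p-values. The number of arrays, 3 per diet, limits the precision. The receptors and gene lists were chosen with earlier results of these data known. Named are all receptors, the 4 genes of each list with the smallest p, and those said to be chosen otherwise. Replicate numbers were not used as pairs: same-numbered arrays' deviations from their diet's mean correlated at 0.26, −0.02 and 0.02.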

Additional observations from a re-analysis of the deposited data

How the results depend on the processing

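No receptor probe set passed the adjusted threshold of limma under any alternative in which it was fitted. Hnf4 and EcR were lower in LCA in each of them, and without overlap after quantile normalization and median centring too. Leaving out each array in turn gave limma unadjusted p-values of 0.00492 to 0.0133 for Hnf4 and 0.00602 to 0.042 for EcR. Probe sets with an adjusted p under 0.05 numbered 0 except with a floor at the 25th percentile (6). Those at an unadjusted p under 0.05 numbered 3026 (1666 to 4928 with arrays left out; 1947 of 9384 above the median signal), and 53.3% of them were lower, 71.1% after median centring. Above the median signal 1 of 11 receptor probe sets remained at an unadjusted p under 0.05, as EcR was left out there and ERR reached 0.053. Leaving out arrays gave 2 or 3 such probe sets and 6 to 12 lower ones.

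Directions of differences near 0 turned. Quantile normalization gave −0.01 for Hr96 and −0.04 for the brightest probe set of Hr38, and median centring gave −0.01 and −0.04, and −0.02 for the dimmest of Hr39. A floor gave −0.03 for the latter and −0.02 for ImpE1. Averaging a gene's probe sets gave −0.01 for Hr38 and Hr39 and −0.02 for ftz-f1. With arrays left out Hr96 ran from −0.16 to 0.21, Hr38 from −0.09 to 0.15 (dimmer probe set −0.09 to 0.04), Hr39's dimmer probe sets from −0.10 to 0.09 and −0.10 to 0.13, Hr78 from −0.07 to 0.04 and ftz-f1 from −0.01 to 0.22. Median centring moved the median difference over all probe sets from −0.01 to −0.06, and quantile normalization left it at −0.01. The causes were not tested.

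Above the median signal, where fewer genes were fitted, list medians were −0.31 for ecdysone synthesis, −0.34 for sterol and fat uptake, −0.55 for very long chain lipids and −0.32 for the other receptors. Above the 25th percentile they were 0.01 for ecdysone response, −0.34 for sterol and fat uptake and 0.10 for the other receptors, and median centring gave −0.18 for ecdysone synthesis. With arrays left out the medians ran from −0.18 to −0.11 for ecdysone synthesis, −0.11 to 0.05 for ecdysone response, −0.28 to −0.04 for sterol and fat uptake and −0.46 to −0.24 for fatty acid oxidation (−0.24 without LCA replicate 3). With the replicate number as a block, 3535 probe sets, 43.4% of them lower, were at an unadjusted p under 0.05 and 0 at an adjusted one. Hnf4 had an unadjusted p of 0.00724, EcR of 0.0157 and ERR of 0.063 with that block. Low signal limits what can be read from EcR, the dimmest Hr39 probe set, dib, sad, Cyp6t3 and ImpE1.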
